A study of Mus musculus with 4 samples.

Results

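Introns with sense reads were taken as the genes whose intron sense row summed to 100 or more reads over the 4 testis libraries, and 2253 of the 6616 intron sense rows met this rule. Each row is 1 gene with the reads of all its introns, on the strand of the gene, added together. A member is hereafter such a gene. Total testicular RNA came from adult male mice of the C57Bl/6J background at postnatal day 60, with 2 libraries from Nef-sp-/- and 2 from Nef-sp+/- testes. The Nef-sp allele carries an out-of-frame deletion of 23 bp made with the Cas9 nickase and a pair of guide RNAs, and the mutant line was bred from founder females with this deletion. Nef-sp-/- mice carry the deletion on both copies of the gene, whereas the Nef-sp+/- controls carry it on 1 copy, so that no library came from mice without it. The libraries were strand specific, depleted of ribosomal RNA and read for 50 cycles. The sources do not say whether the 2 libraries of a genotype came from separate mice, and the p-values measure only the spread between these libraries, which may be technical.

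A gene is transcribed together with its introns, which the spliceosome removes. The released intron is opened by the debranching enzyme and digested by exonucleases in the nucleus, except where it holds a small RNA, such as a snoRNA, that is trimmed out of it and kept. Some introns are spliced slowly and stay in polyadenylated RNA inside the nucleus, which is known as intron detention, and genes for splicing regulators are known for it. NEF-sp, also called REXO5, is a nuclear exonuclease of the testis that digests single-stranded RNA from the 3′ end. The comparison of genotypes asked whether intron reads, alone or relative to the exon reads of the same gene, differed in testes without NEF-sp.

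Intron and exon positions were taken from the GENCODE annotation of mm9, the build used by the authors. A genomic base was called intronic when it lay inside a gene and in no exon of any of its transcripts. Nef-sp (2610020H08Rik, ENSMUSG00000030924) lies on the plus strand at chr7:126937520-126992457 and has 18 such introns with 50156 bases. Its longest intron, intron 5, measures 13.1 kb, and it is followed by a short exon and by intron 6 of 0.960 kb. The ends of both introns are shown because Nef-sp was the only member called in the genotype comparison. The capitals mark the GT that opens each intron and the AG that closes it, and the bases outside them belong to the neighboring exons on one side and to the intron on the other. The donor and acceptor of intron 5 span chr7:126948791-126948810 and chr7:126961877-126961906, and those of intron 6 span chr7:126961976-126961995 and chr7:126962926-126962955, all on the plus strand of mm9.
Nef-sp intron 5 donor: cccttaccagGTttgcttaa
Nef-sp intron 5 acceptor: ttactttcttttcttcctAGggtctcctaa
Nef-sp intron 6 donor: ctgtgaagtgGTaggtaatg
Nef-sp intron 6 acceptor: gaatgtattttgtcttttAGtgccttacat

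Members with 1 annotated intron of at most 300 bases were searched for introns that opened with GT and closed with AG. The intron also had to lie between coding sequence on both sides, and 1 chromosome was left out of the search. The 3 introns kept are printed whole because the annotation used here gives no other intron to the gene. They are the intron of Tnp2, a transition protein that replaces histones in spermatids (chr16:10788187-10788357, minus strand, 171 bases), the intron of 1700125D06Rik, now named Fam229a (chr4:129168806-129168935, plus strand, 130 bases), and the intron of Pgp, a phosphoglycolate phosphatase (chr17:24608095-24608186, plus strand, 92 bases). The sequences are given from 5′ to 3′ on the strand of the gene.
Tnp2 intron: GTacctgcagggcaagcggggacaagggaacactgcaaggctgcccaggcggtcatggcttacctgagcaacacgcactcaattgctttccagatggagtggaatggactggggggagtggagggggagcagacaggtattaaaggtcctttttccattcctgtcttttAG
1700125D06Rik intron: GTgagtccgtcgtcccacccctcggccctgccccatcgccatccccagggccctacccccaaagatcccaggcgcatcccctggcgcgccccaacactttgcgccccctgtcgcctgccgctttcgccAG
Pgp intron: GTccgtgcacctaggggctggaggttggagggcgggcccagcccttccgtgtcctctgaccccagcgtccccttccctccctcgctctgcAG

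Small RNAs that are cut from introns lay inside some of the members with the most intron reads. Snord15a, a snoRNA in an intron of the ribosomal protein gene Rps3 (chr7:106631295-106631442, minus strand), and Scarna6, a small Cajal body RNA in an intron of the autophagy gene Atg16l1 (chr1:89681131-89681395, plus strand), are shown as examples because both hosts recur in the results. The capitals mark the first TGATGA and the last CTGA, the letters in which the C and D boxes of such RNAs are written. Both letter strings were searched on the strand of the RNA only, and 22.6% of the 1552 annotated snoRNA genes held both. The match describes the letters and not a tested site.
Snord15a: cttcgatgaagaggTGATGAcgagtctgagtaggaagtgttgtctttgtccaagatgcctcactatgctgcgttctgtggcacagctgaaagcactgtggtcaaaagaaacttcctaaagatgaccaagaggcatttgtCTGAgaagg
Scarna6: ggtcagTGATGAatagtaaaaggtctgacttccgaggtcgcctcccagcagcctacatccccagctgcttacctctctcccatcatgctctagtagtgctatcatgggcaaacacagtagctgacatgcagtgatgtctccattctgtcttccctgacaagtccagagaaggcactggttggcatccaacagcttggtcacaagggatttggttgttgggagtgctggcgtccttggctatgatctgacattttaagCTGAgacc

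The 4 libraries had 20659865 to 34442517 counted reads, with the most in Nef-sp+/- replicate 2. The spread between replicate libraries exceeded counting noise in the intron sense rows (chi-square over its degrees of freedom 2.17 in knockouts and 2.62 in heterozygotes). In the exon sense rows the values were 3.52 in knockouts and 8.53 in heterozygotes. No library was merged with another. The 5 germ cell markers, Prm1, Tnp1, Sycp3, Dazl and Ddx4, all had exon reads and summed to between 154287 and 182394 normalized exon counts per library. Of the epididymis markers only Crisp1 had a row, with at most 5.77 normalized counts. Sertoli cell markers summed to between 16152 and 16843, with Amh and Rhox5 having no row. Leydig cell markers summed to 16545 and 13931 in Nef-sp-/- replicates 1 and 2, and to 17486 and 17369 in Nef-sp+/-. The 3 macrophage markers stayed between 73.4 and 81.0, and of the blood markers Hba-a1 had no row and Hbb-b1 lay between 10.6 and 26.1. Their part in the results was not tested.

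The members held most of the intron signal of the testis. They took 2087530 of the 2213806 intron sense reads, or 94.3%, and between 94.1% and 94.5% in each library. The member with the fewest reads had 100, the median 310 and the largest 146363, and the middle members by quartile ranged from 172 to 731 reads. The reads were uneven, since the 10 largest members held 18.5% and the 100 largest 44.5% of them. All 2253 members had at least 10 intron reads in every library, and all passed the expression filter of the genotype comparison. These totals follow from the rule and are a description.

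The threshold cut through a continuous range of totals. Cugbp2, Pcif1 and Rpsa were just inside with 100 reads each, and 8 rows had exactly 100. 2210404J11Rik, BC067068 and Cdc34 were just outside with 99 reads each, as were 18 rows in all. The rows of Pcif1 and Cdc34, for example, held 21, 20, 25 and 34 and 30, 23, 12 and 34 raw reads in Nef-sp-/- replicates 1 and 2 and Nef-sp+/- replicates 1 and 2.

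Intron reads were a small fraction of the exon reads in most members. An exon sense row was listed for 2212 members, and 41 had none. In the median member there were 5.02 intron reads per 100 exon reads, with quartiles at 1.82 and 14.1. The range was wide, from 0.532 at the 5th percentile to 165 at the 95th. More intron than exon reads were counted in 148 members (6.69%), and fewer than 1 intron read per 100 exon reads in 290. In rows under the threshold the median was 0.797 (n = 4229), which the rule itself pushes down. Members also had more exon reads than the other rows, with medians of 8002 and 2449. Across 2161 members the Spearman correlation of intron reads with exon reads was 0.21. It is a correlation across genes, which share the same 4 libraries and are not replicates.

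**Figure D1:**
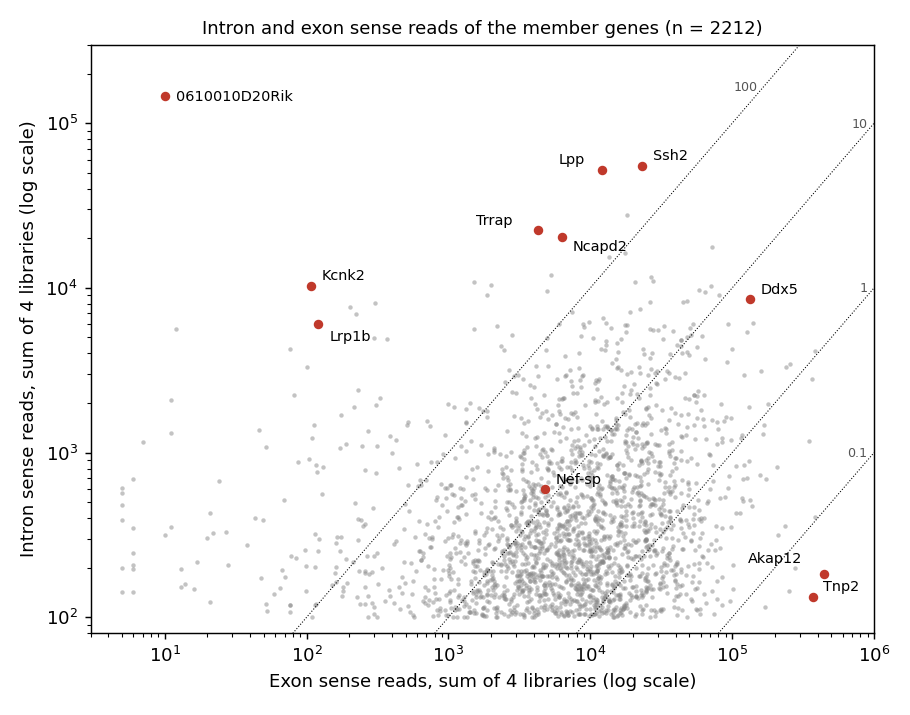
Each point is 1 of the 2212 member genes with an exon sense row, with its exon sense reads (x axis) and intron sense reads (y axis) summed over the 4 libraries, both on log scales. Dotted lines mark 0.1, 1, 10 and 100 intron reads per 100 exon reads, and named genes are drawn in red. Most points lie between 1 and 100 intron reads per 100 exon reads, with 0610010D20Rik and Kcnk2 far above and Tnp2 and Akap12 at the bottom right.

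Per base, introns were covered far less than exons. A gene model was found for 2203 members, and 2198 of these had an annotated intron. The median member had 12.1 intron reads per kb of intron over the 4 libraries, with quartiles at 4.21 and 39.5, against a median of 1916 exon reads per kb of exon. The density in introns was 0.766% of that in exons in the median member, and it was above the exon density in 48 of 2161. The Spearman correlation of intron reads with intron length was 0.016 across 2198 members. Members were somewhat longer than the rows under the threshold, with 12 against 10 introns, a summed intron length of 30.9 against 23.1 kb and a longest intron of 9.51 against 7.65 kb in the median gene. Summed introns over 100 kb were found in 17.2% of members and 14.1% of the other rows.

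The splice sites and base composition of members were close to those of the other rows. Of 36467 introns of annotated member transcripts, 97.4% opened with GT and closed with AG, against 97.8% of 61624 introns in rows under the threshold. GC donors with AG acceptors made up 1.24% and 0.951%, and AT donors with AC acceptors were found in 31 and 62 introns. The median GC content of the introns was 43.2% in members and 44.2% in the other rows. An antisense intron row was listed for 662 members (29.4%) and for 906 of the other rows (20.8%). Among those members the median was 14.4 antisense per 100 sense reads, and 154 had more antisense than sense reads.

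Some annotated introns overlap exons of other genes on the same strand, and the table does not say where in an intron a read fell. Any such overlap was counted, so that a gene need not lie wholly inside an intron. No other gene was annotated in the introns of 1805 members, which held 61.3% of the member reads and had a median of 14.1 reads per kb. A snoRNA or small Cajal body RNA overlapped the introns of 76 members with 8.26% of the reads and 31.1 reads per kb. Lpp, Trrap and Ncapd2 held 52245, 22321 and 20446 of the 172405 reads of these hosts, so that the share rests on few members. Each member was counted once, in the first class it held of snoRNA, protein-coding gene, miRNA, pseudogene and other noncoding gene. So counted, protein-coding genes overlapped introns of 60 members with 10.8% of the reads, and pseudogenes those of 121 with 10.9%. 0610010D20Rik alone held 146363 of the 225865 reads of the protein-coding hosts, and Ssh2 held 55125 of the 226776 reads of the pseudogene hosts. The remainder were 57 members with a miRNA, 79 with another noncoding gene, 5 with no annotated intron and 50 not matched to the annotation. By share of the annotated genes, snoRNA hosts were 3.46% of members and 1.90% of the rows under the threshold, pseudogene hosts 5.51% and 2.15%, and hosts of protein-coding genes 2.73% and 2.08%.

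The ratio to exon reads was also uneven among these groups. The median was 4.42 intron reads per 100 exon reads in members without another gene, 6.86 in snoRNA hosts, 7.77 in miRNA hosts, 11.9 in hosts of protein-coding genes and 17.7 in pseudogene hosts. Pseudogene hosts had long introns, 96.1 kb in the median gene, and only 4.24 reads per kb. snoRNA hosts had 24.1 kb and members without another gene 27.3 kb. Reads per kb fell with intron length over all members (Spearman correlation −0.77, n = 2198), while intron reads were nearly uncorrelated with it (0.016). A fixed minimum of reads also requires fewer reads per kb of a long intron, and its part was not tested.

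**Figure D2:**
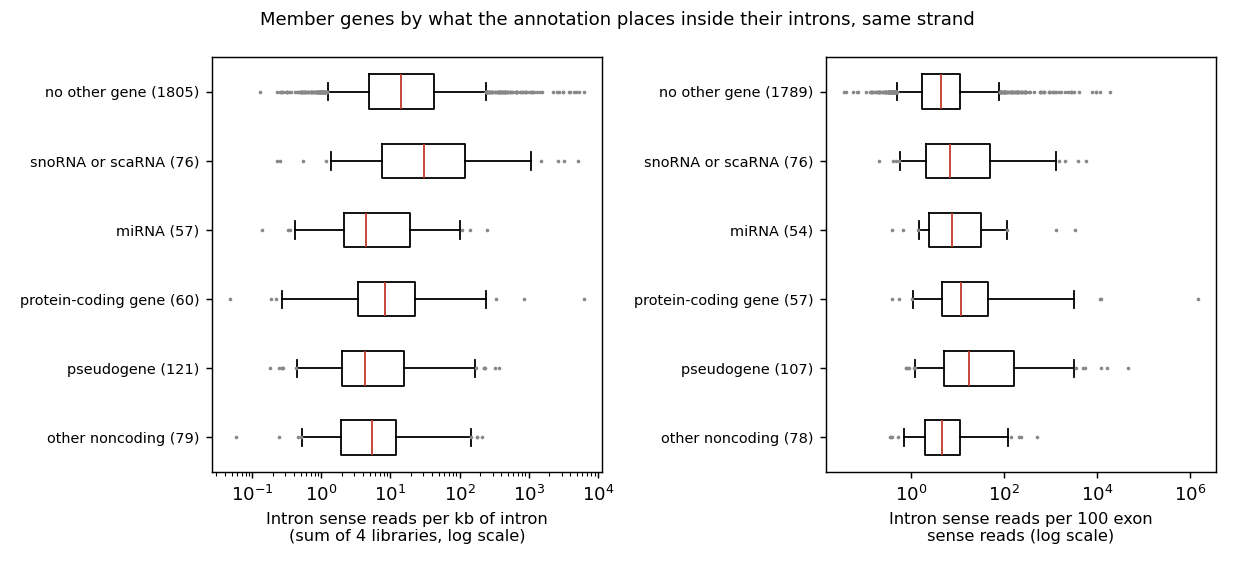
Member genes were grouped by the annotated genes whose exons overlap their introns, in whole or in part, on the same strand. The number of members is in parentheses. They were plotted by intron sense reads per kb of intron (left) and intron reads per 100 exon reads (right), both on log scales. Boxes span the quartiles with the median in red, whiskers reach the 5th and 95th percentiles, and points are members beyond them. snoRNA hosts had the highest median per kb (31.1) and pseudogene hosts the highest median per 100 exon reads (17.7).

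The largest intron total was in 0610010D20Rik, now named Hoga1, which encodes a mitochondrial aldolase. It had 40245 and 35409 normalized intron counts in Nef-sp-/- against 30325 and 39237 in Nef-sp+/-, so that the genotypes overlapped. Its exons had only 10 reads in all, and the protein-coding gene 4933411K16Rik, which has no exon row of its own in the table, is annotated inside 1 of its introns. This row alone was 7.01% of all member reads and had 6340 reads per kb of intron.

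Ssh2 and Lpp had the next largest totals. Ssh2, a phosphatase that activates cofilin, had 14467, 12716, 13538 and 14230 normalized intron counts in Nef-sp-/- replicates 1 and 2 and Nef-sp+/- replicates 1 and 2, the order used from here on. Lpp, a LIM domain protein of cell adhesions, had 13041, 11339, 12650 and 14496. The genotypes overlapped in both genes. They had 237 and 433 intron reads per 100 exon reads, and a pseudogene (Gm12346) in Ssh2 and the small RNAs Mir28 and SNORA17 in Lpp are annotated in their introns. Trrap, a scaffold subunit of histone acetyltransferase complexes, had 5220, 5988, 6564 and 4884 with 524 per 100 exon reads. Ncapd2, a subunit of condensin, had 5201, 4807, 5030 and 5314 with 325 per 100 exon reads. SNORA70 in Trrap and Scarna10 in Ncapd2 are annotated in their introns.

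The other members among the 10 largest were 1700041C02Rik, now named Ccdc30, whose total came before that of Trrap, 2.NM_009340, Tmem162, Ckt2 and Fam82a1, with 154, 24.6, 91.9, 113 and 228 intron reads per 100 exon reads. 2.NM_009340 was not matched to the annotation, and Ckt2 has no intron there, so that the gene models behind the table differed from those used here for some rows. The pseudogene Ldha-ps2 is annotated in introns of 1700041C02Rik and the protein-coding gene 4921513D11Rik in those of Fam82a1, neither with an exon row. In other hosts a gene inside the introns had exon reads of its own. Papolb, a testis poly(A) polymerase inside D930005D10Rik, had 86994 exon reads beside 10443 intron reads of its host. Rnf133, a ubiquitin ligase gene inside Cadps2, had 29491 exon reads beside 11774 intron reads. The protein-coding gene Rnf148 and an rRNA gene are also annotated in the introns of Cadps2, and neither had an exon row.

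The highest ratios among members with at least 100 exon reads were in genes with few exon reads. Kcnk2, a potassium channel, had 10334 intron against 107 exon reads, or 9658 per 100. Its intron counts were 2531, 2452, 2496 and 2761, and no other gene on its strand is annotated in its introns. Lrp1b, a very long gene of the LDL receptor family, had 1505, 1440, 1483 and 1548 and a ratio of 4959 per 100. Its 92 introns sum to 2035229 bases, with 2.95 reads per kb against 78.1 in Kcnk2, and the pseudogene Gm13461 is annotated in them. The genotypes overlapped in both genes.

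Further high ratios ranged from 3765 to 1302 per 100 exon reads. In that order they belonged to LOC100039753, Sntg1, OTTMUSG00000010671, Sumf1, Atg16l1 and Bcl2l11. Sumf1 activates sulfatases, Bcl2l11 encodes the cell death protein BIM, and Atg16l1 hosts the Scarna6 printed above. The pseudogene Gm4604 is annotated in introns of Sumf1, and a miRNA and pseudogenes in those of Sntg1. Sntg1 also had 7460 antisense intron reads beside its 3328 sense intron reads. The intron counts of Atg16l1 were 1299, 1077, 1282 and 1236, with 367 exon reads in all.

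The lowest ratios were in genes with very many exon reads. Tnp2 had 133 intron against 368658 exon reads, or 0.0361 per 100, with normalized intron counts of 32.2, 33.0, 30.3 and 36.1. Akap12, an anchoring protein for protein kinase A, had 0.0412, Sord, the sorbitol dehydrogenase, 0.0574, the chaperone gene Hsp90aa1 0.0677, and Tnp1, the other transition protein, 0.0722 per 100. Per kb of intron, Tnp2 and Tnp1 were not low, with 778 and 501 reads, since their introns are short. The intron of 1700125D06Rik had 3138 reads per kb, with 102, 84.7, 105 and 111 normalized counts, and that of Pgp had 1098, with 31.0, 25.3, 24.7 and 22.1.

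The densest introns per kb, after 0610010D20Rik, were those of Sfrs2, Zfp574, Rps3 and Bag5. Sfrs2, now named Srsf2, a splicing regulator that acts on its own RNA, had 6236 reads per kb. Its intron here was only the 233 bases outside every annotated exon and did not close with AG, so that this density depends on the gene model. Zfp574, a zinc finger gene, had 5372 and Bag5, a cochaperone of Hsp70, 4816. Rps3 had 5251 over 1360 intron bases, beside 4483 exon bases, so that its density also depends on the gene model. Its intron reads nearly matched its exon reads, with 96.4 per 100.

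Splicing genes had higher median ratios and densities than the members as a whole. Of 57 listed splicing regulators and kinases, 51 had an intron row and 42 were members, with medians of 13.3 intron reads per 100 exon reads and 120 reads per kb, beside 5.02 and 12.1 over all members. All 11 genes listed for known detained introns were members, with medians of 24.0 per 100 and 223 per kb, and most of them are also in the list of splicing genes. Ddx5, an RNA helicase, had 2016, 2355, 2197 and 1997 normalized intron counts and 2784 reads per kb. Its intron length was 3056 bases beside 5775 exon bases. Bases in any annotated exon were left out of the length, so that the densities of these lists depend on the gene model. Rbm39 had 53.6 intron reads per 100 exon reads, and Luc7l, related to a U1 snRNP protein of yeast, had 370. The lists are short and were chosen with earlier results known, so that this is a description.

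The lists of germ cell genes had lower median ratios than the members as a whole. Of 59 listed genes of spermatid chromatin and sperm structure, 42 had an intron row and 27 were members, with a median of 1.60 intron reads per 100 exon reads. Acrbp, which binds proacrosin, reached 31.3 and Crem, a transcription factor of spermatids, 47.3. Of 41 meiosis genes 9 were members (median 2.43), among them Sycp2 of the synaptonemal complex with 11.03 and Meig1 with 2.43. Of 26 genes of the piRNA pathway and germ granule 13 were members (median 3.37), among them the tudor domain gene Rnf17 with 20.1 and the helicase gene Ddx4 with 4.57. Of 29 axonemal dynein heavy chain names 3 were members, among them Dnahc8 with 0.393 and Dnahc2 with 3.33.

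The other lists had fewer members. Of 41 exoribonuclease and exosome genes 28 had an intron row and 10 were members, with a median of 8.08 intron reads per 100 exon reads. Besides Nef-sp they included the deadenylase gene Cnot6 with 95.9 and Rexo1 with 13.6. Of 49 listed snoRNA host genes 12 were members (median 3.35), among them Rps3 and the translation factor gene Eif4a1 with 24.6. This list was chosen by name and is not the set of 76 hosts found by annotation. Of 22 Sertoli cell genes 4 were members (median 0.915), Fabp9 and Aard among them, although Fabp9 is also known as a protein of sperm. Prlr, with 102 intron reads, was the only member from 23 Leydig and interstitial genes, and no long noncoding, macrophage, blood or epididymis gene of the lists was a member.

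In the comparison of genotypes, the intron sense reads of Nef-sp were the only ones called. Its raw intron reads were 64 and 90 in Nef-sp-/- against 193 and 250 in Nef-sp+/-. The normalized counts were 76.2 and 99.0 in Nef-sp-/- against 216 and 184 in Nef-sp+/-, so both knockout libraries were below both controls. The log2 fold change was −1.18 (SE 0.184, edgeR quasi-likelihood test, adjusted p = 0.0084 over 3403 intron rows). The normalized exon counts were 406.5 and 497 in Nef-sp-/- against 1843 and 1693 in Nef-sp+/-, and the log2 fold change was −1.97 (SE 0.0921, edgeR adjusted p = 4.1e-06). The reads are from whole testis, in which fewer cells of a type and less RNA per cell cannot be told apart.

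The ratio of intron to exon reads of Nef-sp was higher in both knockout libraries and missed the threshold. There were 18.2 and 21.4 intron reads per 100 exon reads in Nef-sp-/- against 12.1 and 10.4 in Nef-sp+/-, with no overlap of the genotypes. The log2 difference in ratio was 0.78 (SE 0.181), with an edgeR adjusted p = 0.379 over all rows tested. It passed with crossed replicate numbers as a block, a fit added after the data were seen (edgeR adjusted p = 0.0074). The intron call was lost without an expression filter (adjusted p = 0.470) and with library sizes taken over all annotation categories (adjusted p = 0.0804), both by edgeR, and with DESeq2 on all rows (adjusted p = 0.0608).

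**Figure D3:**
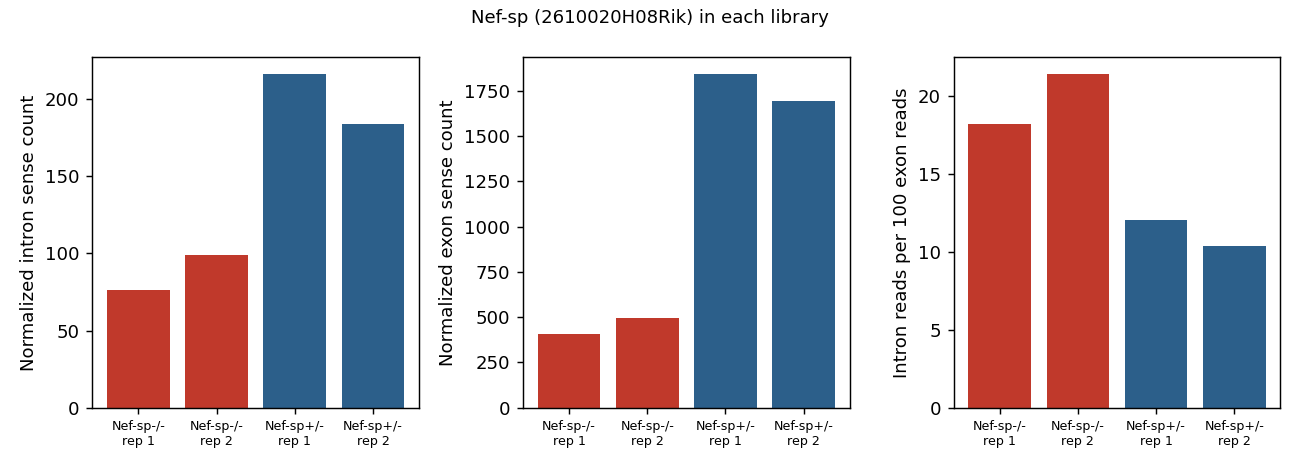
Bars give Nef-sp in each of the 2 Nef-sp-/- (red) and 2 Nef-sp+/- (blue) libraries as normalized intron sense counts (left), normalized exon sense counts (middle) and intron reads per 100 exon reads (right), each axis starting at 0. Both counts were lower and the ratio higher in the Nef-sp-/- libraries, at 18.2 and 21.4 against 12.1 and 10.4.

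No other member passed the threshold in the intron comparison. In all, 1 of 3403 intron rows tested was called (0.0294%), and this was 1 of the 2253 members. The next smallest adjusted p was 0.9996. At an unadjusted p under 0.05 there were 48 members and 80 rows, and DESeq2 on the same rows also called only Nef-sp. For the ratio of intron to exon reads, 0 of 3294 rows were called (0%), among them 0 of the 2179 members tested, with 60 members and 101 rows at an unadjusted p under 0.05 and 0 calls by DESeq2. For exon reads 1 of 10728 rows was called (0.00932%), again Nef-sp, and 98 member genes and 515 rows had an unadjusted p under 0.05. DESeq2 on the same exon rows called 2 (0.0186%), of which 1 was the row of a member. Without Nef-sp+/- replicate 2, 104 exon rows of members were called (4.77%), beside 2.32% of all exon rows tested.

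The differences between genotypes were small in most other members. The median absolute log2 fold change was 0.11 for intron reads, 0.11 for the ratio and 0.05 for exon reads of member genes, beside 0.14, 0.15 and 0.07 over all rows tested. Nef-sp was the only member with an absolute intron log2 fold change above 1, and 2.09% exceeded 0.5. For the ratio 1 member exceeded 1, which was not Nef-sp (0.78), and 2.57% exceeded 0.5. Replicates of a genotype differed from each other by a median of 0.21 (Nef-sp-/-) and 0.19 (Nef-sp+/-) on the log2 scale. Single libraries of different genotypes differed by medians of 0.15 to 0.21. Both knockout libraries were above both controls in 277 members (12.3%), beside 13.5% of all 3403 rows tested, and below them in 328 (14.6%), beside 14.5%.

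**Figure D4:**
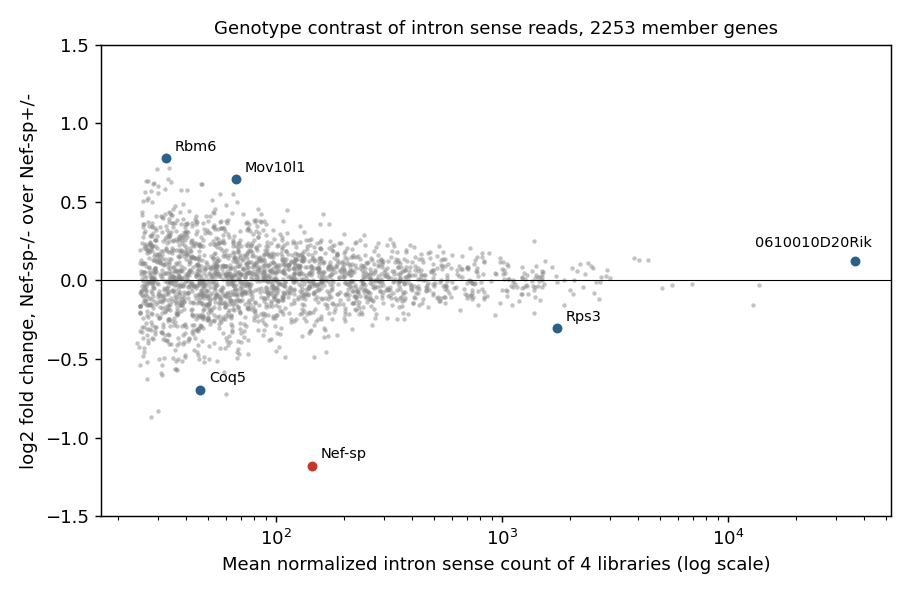
For each of the 2253 member genes, the log2 fold change of intron sense reads, Nef-sp-/- over Nef-sp+/- (y axis), is plotted against the mean normalized intron count of the 4 libraries (x axis, log scale). Nef-sp (red) lies at −1.18 and is the only member beyond 1 in either direction, and blue points mark other members named in the text.

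The members with the smallest p for the ratio after Nef-sp did not pass the threshold, and their values rest on few reads. Mov10l1, a helicase gene of the piRNA pathway, had 59.5 and 101.2 normalized intron counts in Nef-sp-/- against 52.7 and 50.8 in Nef-sp+/-. Rbm6, for an RNA-binding protein, had 40.5 and 41.8 against 22.4 and 25.02. Coq5, for a methyltransferase of ubiquinone synthesis, had 35.7 and 34.1 against 58.3 and 55.2. Adc, now named Azin2, an antizyme inhibitor gene, had 38.1 and 22.0 against 31.4 and 53.7. In these intron counts the genotypes did not overlap in Mov10l1, Rbm6 and Coq5, and in Adc they did. The ratios did not overlap in any of these genes. Those of Adc were 0.691 and 0.473 intron reads per 100 exon reads in Nef-sp-/- against 0.916 and 0.950 in Nef-sp+/-. In the order named, the log2 differences in ratio were 0.61, 0.75, −0.68 and −0.74. Without Nef-sp-/- replicate 2, that of Mov10l1 was 0.29 and that of Adc −0.43, and without Nef-sp-/- replicate 1 that of Adc was −1.13.

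The snoRNA host Rps3 did not pass the adjusted threshold either. Its normalized intron counts were 1693 and 1435 in Nef-sp-/- against 1779 and 2081 in Nef-sp+/-, without overlap, and there were 90.2, 81.5, 98.0 and 108.3 intron reads per 100 exon reads. The intron log2 fold change was −0.30 (SE 0.142, unadjusted p = 0.0434 from edgeR across all rows), and the exon log2 fold change was 0.0049. The log2 difference in ratio was −0.31 and was not called. Rps3 was 1 of the 48 members at an unadjusted p under 0.05. Of the 12 listed snoRNA host genes, 2 were higher and 4 lower in Nef-sp-/- without overlap, beside 13.5% and 14.5% of all rows tested.

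No list had a call other than that of Nef-sp. The median log2 fold change of intron reads was 0.05 over the 42 splicing regulators and kinases, 0.06 over the 11 genes with detained introns, 0.07 over the 12 snoRNA hosts, −0.05 over the 27 spermatid genes, −0.03 over the 13 piRNA pathway genes and 0.01 over the 9 meiosis genes. It was −0.02 over the 10 exoribonuclease and exosome genes, of which Nef-sp was 1. Over all 3403 rows tested the median was 0.01. When members were grouped by the genes that overlap their introns, the medians ranged from −0.03 in pseudogene and snoRNA hosts to 0.06 in miRNA hosts. The snoRNA hosts of this grouping are the 76 members found by annotation, a different set from the 12 of the list. The median was 0.14 over the 5 members with no annotated intron.

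As a single value for each library, the ratio of intron to exon reads overlapped between the genotypes. Pooled over the members, there were 5.31 and 5.71 intron reads per 100 exon reads in Nef-sp-/- against 5.57 and 5.30 in Nef-sp+/-. The means were 5.51 ± 0.282 (SD, n = 2) and 5.43 ± 0.187 (SD, n = 2), with p = 0.667 in an exact two-sided permutation test over libraries. The ratio of the median member was 4.77 and 5.42 in Nef-sp-/- against 5.07 and 4.78 in Nef-sp+/-, with means of 5.09 ± 0.459 (SD, n = 2) and 4.92 ± 0.201 (SD, n = 2) and an exact p = 1. With 2 libraries against 2 this test cannot give a p below 0.333. Without 0610010D20Rik, whose exons were nearly unread, the pooled difference went from 0.0798 to 0.0434.

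**Figure D5:**
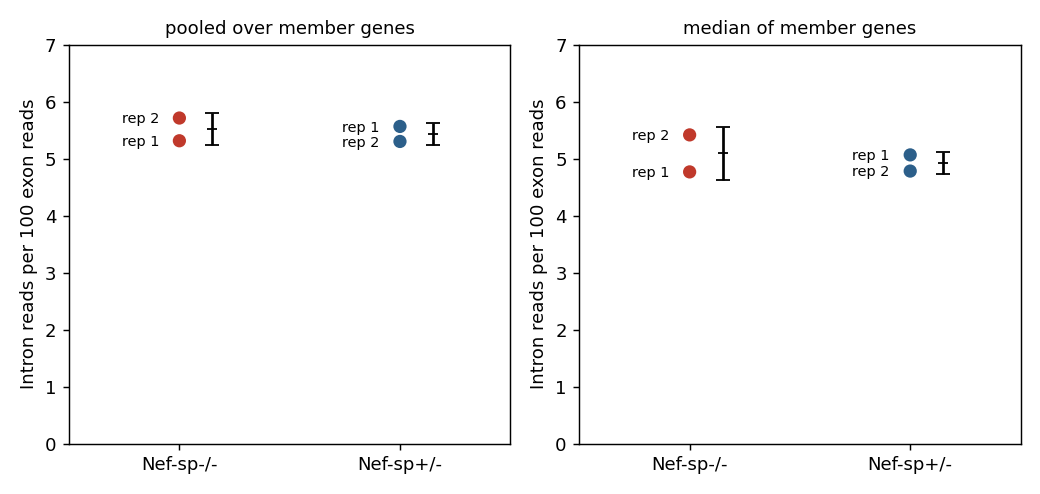
Intron reads per 100 exon reads in each library (points), pooled over the member genes (left) and as the median of the member genes (right), with the mean and SD of each genotype (n = 2) beside the points and the y axis starting at 0. The Nef-sp-/- libraries (red) at 5.31 and 5.71 overlap the Nef-sp+/- libraries (blue) at 5.57 and 5.30 when pooled, and likewise for the median.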

How the data were processed

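Total testicular RNA was sequenced in 2 Nef-sp-/- and 2 Nef-sp+/- libraries. The authors aligned the reads to mm9 using their own software and retained only perfectly matching ones, and the deposited values are raw read counts for each feature, category and strand. How reads with several matches were assigned is not given in the sources used here. The deposited table also holds fold changes and p-values of the authors' own DESeq2 comparison, which were not used.

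Members and gene lists were chosen with earlier results of these data known. Intron sense and exon sense counts were normalized by TMM within each category and fitted with edgeR 4.0.16 (quasi-likelihood test, filterByExpr with a minimum count of 10, Benjamini-Hochberg adjustment over all rows tested in the category, threshold 0.05). Normalized counts are counts scaled to the mean effective library size of the category. The ratio was tested as the interaction of category and genotype, with a term per library. The single value per library was compared by the exact permutation test. The scripts were tested on simulated data. DESeq2 1.42.0 on the same filtered rows, other normalizations, filters, thresholds and each library left out were alternatives.

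Intron lengths, genes overlapping introns and sequences came from GENCODE vM1 on NCBIM37 (mm9). Of the members, 2058 were matched by symbol, 128 by a RefSeq synonym, 15 by the longest of overlapping entries and 2 by accession. A further 46 had no match and 4 were ambiguous. The authors' gene models are not given in the sources used here, so lengths may differ. Named genes were Nef-sp, members past the threshold or otherwise the 5 with the smallest p, the 10 with most reads, the 10 highest and 5 lowest ratios with at least 100 exon reads, the 5 with most reads per kb, 3 on each side of the threshold, and the 2 with most reads in each list, and some genes named by this rule are not reported here. Other genes, such as Papolb and Rnf133 inside their hosts and members with 1 short intron, were chosen after their values were seen.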

Additional observations from a re-analysis of the deposited data

How the results depend on the processing

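The intron call of Nef-sp kept its direction in all alternatives, and its log2 fold change lay between −1.38 and −1.02 with 1 library left out. It was −1.16 (adjusted p = 0.0804) with library sizes over all annotation categories and −1.19 (adjusted p = 0.470) without an expression filter, and 0 rows and 0 members were then called. With DESeq2 on the filtered rows it was −1.19 (adjusted p = 0.0129), and on all rows, an alternative chosen after seeing the data, −1.19 (adjusted p = 0.0608) with 0 rows and 0 members called. Left-out libraries changed the count of member genes called in exon reads, which ranged from 1 to 104 and was 10 without Nef-sp+/- replicate 1 and 104 without Nef-sp+/- replicate 2, of which 98 were higher in Nef-sp-/-. Over all exon rows tested, 0.376% and 2.32% were called in these fits, beside 0.459% and 4.77% of the members' exon rows. The genotype with 1 library is then assumed to vary like the other, and the cause was not tested.

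The replicate numbers are only names. Deviations of libraries with the same number had a correlation of −0.26 over 2558 intron rows and −0.14 over 10154 exon rows. With the replicate number as a block, 1 intron row was called, Nef-sp, at −1.18 (adjusted p = 9.9e-04), and 0 in the ratio. With crossed numbers as the replicate block, an alternative chosen after seeing these values, 2 intron rows, both members and both lower, 2 rows in the ratio, both members, and 21 exon rows of members (0.964%, beside 0.923% of all exon rows) were called. The ratio of Nef-sp was then 0.77 (adjusted p = 0.0074).

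With all 4 libraries, the difference in pooled ratio lay between 0.0434 and 0.108 and that in the median ratio between 0.111 and 0.192 under the alternatives run, beside SDs of libraries within a genotype of 0.239 and 0.354. With 1 library left out they are values with no test, and the pooled difference lay between −0.12 and 0.279 and the median difference between −0.156 and 0.493.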
